A study of Rattus norvegicus with 16 samples.

Results

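The right kidneys of rats given DEX were compared with the right kidneys of rats given saline, each right kidney being set against the left kidney of the same animal. The kidneys compared were 12 of the 16 arrays and 6 of the 8 rats, chosen by the treatment and rat number in the sample titles: rats 3 and 7 for DEX and rats 2, 4, 6 and 8 for saline. All 8740 probe sets of the array other than the spike-in controls were considered. Total RNA of each kidney was converted to biotin-labelled cRNA and read on its own one-colour oligonucleotide array. The other 2 rats (1 and 5) had received ACTH, adrenocorticotropic hormone, the pituitary hormone that drives adrenal steroid output. Their arrays entered the filter on signal and all model fits, and so the standard errors and p-values of these fits. Their own values are given only where they are named. The left kidney of every rat served as that animal's control. The labels do not expand DEX, which is the usual short form of dexamethasone, a synthetic glucocorticoid. They give no dose, route, interval, strain, sex or age, and do not say how far an agent given for the right kidney also reached the left. The titles list 4 saline rats whereas the text of the series speaks of 2 rats per treatment, and the titles were followed. With 2 DEX rats every p-value reflects the spread between these few animals, and an exact two-sided permutation test of 2 against 4 rats cannot give a p below 0.133.

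Glucocorticoids act through the receptor Nr3c1, a ligand-activated transcription factor present in most kidney cells. In the kidney they are known to induce the kinase Sgk1, which raises sodium reabsorption, to support gluconeogenesis in the proximal tubule, to reset the tubular clock, and to lower the expression of inflammatory and collagen genes. The enzyme Hsd11b2 inactivates natural glucocorticoids in the distal nephron and so protects the mineralocorticoid receptor from them.

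Signals are given below on the linear scale of the deposited values. The change of a rat is its right kidney minus its left kidney on the log2(signal + 16) scale, which understates the change of dim probe sets, and the DEX difference is the mean change of the DEX rats minus that of the saline rats, with its standard error (SE) from limma. The median signal of an array lay between 76.01 and 82.42. Of the 8740 probe sets, the 40% of lowest mean signal were left out and 5244 were tested. The labelled tissue was borne out by its markers. All 20 proximal tubule genes on the array passed the limit on brightness, with a summed signal of 30510 to 36840 in the 12 kidneys compared, and so did all 9 thick ascending limb genes. Of 10 adrenal cortex genes, 7 passed the limit, Cyp11a1 and Nr5a1 among them, with a median DEX difference of 0.04, and Cyp11b2, Nr0b1 and Star were below it. Kidneys of different rats were more alike within rats 1 to 4 or within rats 5 to 8 (median r = 0.974 over 48 pairs) than between those sets (median r = 0.938 over 64 pairs). The labels do not mention these sets, and each holds 1 DEX rat and 2 saline rats.

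No gene was called for DEX over saline. Of 5244 probe sets, 0 (0%) passed an adjusted p of 0.05 in limma, and the lowest adjusted p was 0.776. At an unadjusted p under 0.05 there were 95 probe sets with a higher value after DEX (1.81%) and 58 with a lower value (1.11%), against 262 that such a threshold gives by chance. The higher count was 27 without rat 3, 57 without rat 8 and 146 without rat 4, and the lower count 31 without rat 7, 97 without rat 1 and 96 without rat 5. Without rat 3, 2 probe sets passed the adjusted threshold, M83740_s_at and 1 of Mep1a, and without saline rat 6, 2 passed, both of Ucp1. In 318 probe sets (6.06%) the changes of both DEX rats lay above those of all 4 saline rats, and in 333 (6.35%) they lay below. The genes below are therefore described by their values, and none of the differences from saline is a call. The DEX difference exceeded 1 on the log2 scale in either direction in 17 probe sets and 0.5 in 123, beside a median SE of 0.17. The right kidneys of DEX rats were also compared with their own left kidneys alone: 0 probe sets passed the adjusted threshold in limma, 313 passed unadjusted, and the lowest adjusted p was 0.154. The same test in the saline rats gave 0 adjusted and 194 unadjusted, with a lowest adjusted p of 0.0594. Leaving out 1 rat gave up to 4 calls within the DEX rats (2 without rat 1 or rat 5, Col1a1 and Col3a1, 3 without rat 3, 4 without rat 6) and 1 within the saline rats, a probe set of the desaturase Scd2 without rat 6.

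The genes were named by size among those with an unadjusted p under 0.05 and no overlap between the DEX and saline rats, a condition met by 42 genes with a higher value and 28 with a lower one. The 14 largest in each direction ranged from 0.54 to 1.07 above saline and from -0.45 to -2.24 against it, so their separation from saline was a condition of the choice. The higher set held the carbonic anhydrase Car4, the phosphatase subunits Ppp1cb and Ppp1cc, the acyl-CoA synthetase Acsm3, the clock factor Dbp, Sgk1, the chaperone Hspa5, Pafah1b1, Afm, Ccdc117, Hnmt, Slc35a1, Srsf11 and Ankib1. The lower set held 3 genes of brown or white fat (Ucp1, Cfd, Fabp4), 3 fibrillar collagen genes (Col3a1, Col1a1, Col1a2), the clock factor Bmal1, and Sncg, Ces1e, Nnat, Ppard, Ccl2, Wrap53 and Mmp2. Every one of the 28 had an adjusted p of 0.776 or above.

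**Figure D1:**
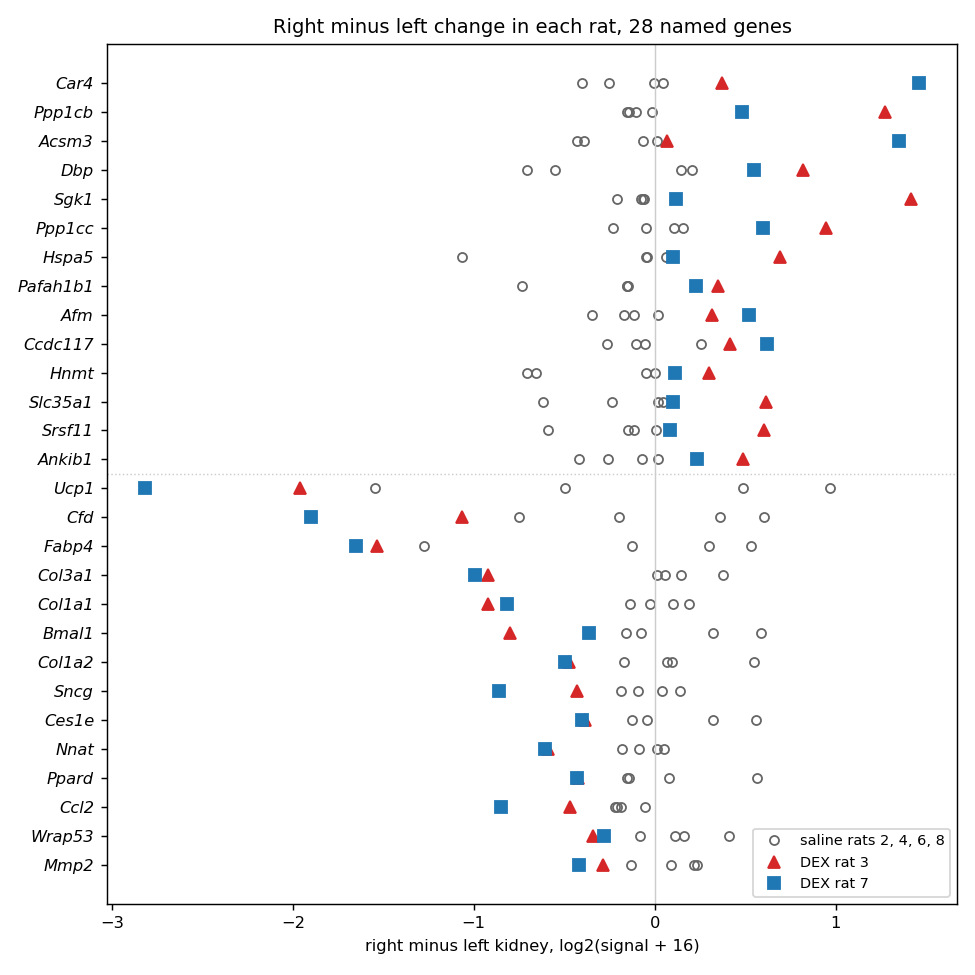
Right minus left log2 change of each rat for the 28 named genes, with DEX rats 3 and 7 and saline rats 2, 4, 6 and 8 as separate points. By the rule of choice both DEX points lie on 1 side of the 4 saline points for each gene; the spacing of the DEX points shows where 1 rat carries most of the difference, as for Sgk1 (1.42 and 0.12).

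Sgk1, the sodium transport kinase and a classical glucocorticoid target, had signals of 249 and 519 in the left kidneys of DEX rats 3 and 7 and of 690 and 566 in their right kidneys. In the saline rats it had 707, 581, 435 and 630 on the left and 670, 554, 417 and 543 on the right. The low left kidney of rat 3 stood apart from all other kidneys, while the right kidney of rat 7 fell among the right kidneys of saline rats and that of rat 3 lay just above them. The right minus left change was 1.42 in rat 3 and 0.12 in rat 7, against -0.08, -0.07, -0.06 and -0.21 in the saline rats. The DEX difference was 0.87 ± 0.28 (SE, 2 and 4 rats; adjusted p = 0.999, limma), and it was 0.22 without rat 3 and 1.52 without rat 7. Compared directly between animals, the left kidneys of DEX rats were 0.66 below those of saline rats and the right kidneys 0.21 above.

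Of 27 glucocorticoid-responsive genes on the array, 23 were tested. Their median difference was 0.24 beside -0.00 over all 3187 genes tested. The difference was positive in 19 and negative in 4. At an unadjusted p under 0.05, 4 of the 23 had a higher value (Sgk1, Nfkbia, Sdc4 and Per2) and 0 a lower one. Of all genes, 1.57% and 1.1% did so. In 6 of the 23 (26.1%) both DEX rats lay above all saline rats, and in 0 below, beside 6.28% and 6.81% of all genes. Averaged over the 23 genes, the change was 0.19 in rat 3 and 0.13 in rat 7, against -0.13, 0.18, -0.29 and -0.10 in the saline rats. Saline rat 4 thus fell between the DEX rats. The median was 0.39 without rat 4 and 0.14 without rat 6. Fgg, Lcn2, Tat and Tdo2 were too dim to be tested.

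The inhibitors of signalling among these genes had positive differences with wide errors. Nfkbia, which holds NF-kappaB in the cytoplasm, had signals of 171 and 359 on the left and 242 and 453 on the right in the DEX rats, against 285, 142, 560 and 352 on the left and 220, 202, 332 and 220 on the right in the saline rats. The changes of 0.46 and 0.32 in the DEX rats were reached by saline rat 4 (0.46), and the other saline rats lay between -0.73 and -0.35. Its difference was 0.71 ± 0.28, and a second probe set gave 0.77. Errfi1, an inhibitor of the epidermal growth factor receptor, had 0.57 ± 0.36, again with saline rat 4 (0.63) above both DEX rats (0.21 and 0.58). Dusp1, a phosphatase that switches off MAP kinases, had 0.41 ± 0.24 at its brightest probe set and 0.61 at each of 2 others. In Dusp1 the brightest probe set did not change in rat 3 (-0.00) and changed by 0.53 in rat 7.

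Sdc4, a heparan sulfate proteoglycan of the cell surface, showed narrower spread. Its signals on the left were 1580 and 1531 in the DEX rats and 2150, 1969, 2152 and 1921 in the saline rats, while on the right they were 1927 and 2011 against 1930, 1816, 2108 and 1812. The left kidneys of DEX rats lay below all left kidneys of saline rats, and the right kidneys overlapped. Its DEX difference was 0.43 ± 0.13, and a second probe set gave 0.48. The transcription factors Cited2 and Klf9 had 0.44 ± 0.21 and 0.43 ± 0.26, and for Klf9 saline rats 2 and 4 (0.11 and 0.29) lay between the DEX rats (0.42 and 0.04).

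The remaining members had smaller differences: 0.33 for Cebpb, 0.32 for Pck1, 0.30 for Gadd45a, 0.24 for Slc9a3, 0.19 for Atp1b1, 0.12 for Ndrg2, 0.09 for Sult1a1, 0.08 for Glul, and 0.02 to 0.03 for Igfbp1, Scnn1a and Anxa1. Negative values of at most 0.09 in size were found for Cdkn1a, Agt, Agxt and Cebpd. Pck1, the rate-limiting enzyme of gluconeogenesis, varied mostly among saline rats, with changes of -1.36, 0.62, -0.44 and 0.20 against 0.06 and 0.09 after DEX. Igfbp1, which binds insulin-like growth factors, likewise ranged from -1.27 to 1.09 in the saline rats and had -0.33 and 0.42 in the DEX rats. Its difference was 0.03 ± 0.49, so a change of either sign was not detectable here.

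Cebpd, a transcription factor induced by glucocorticoids and by inflammation, was read differently by its probe sets. The brightest gave -0.09 ± 0.14, whereas 2 others gave 0.59 ± 0.18 and 0.68 ± 0.18. Which of them reads the gene best was not tested. The receptor Nr3c1 itself had -0.12 ± 0.14, with signals from 106 to 127 in the 4 kidneys of DEX rats and from 70.4 to 136 in the 8 kidneys of saline rats. Hsd11b2 had -0.08 ± 0.22, with signals of 734 and 726 on the left and 794 and 713 on the right in the DEX rats, against 720 to 974.5 on the left and 969, 907, 825 and 876 on the right in the saline rats. Its right kidneys in both DEX rats lay below those of all saline rats, and its left kidneys overlapped.

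Per2, the tested period gene of the clock that also carries glucocorticoid-responsive control, connects this list with the circadian genes. The clock runs as a loop: Bmal1 activates E-box genes such as Per2, Nr1d1, Nr1d2 and Dbp, and the repressors Nr1d1 and Nr1d2 act back on Bmal1. Dbp, Tef and Hlf are output factors of the same family. The upstream sequences of the 4 clock genes with the smallest p are shown from RefSeq (assembly GRCr8), so their choice rests on these data. Capitals mark CCAAT, read as CCAAT or in reverse complement as ATTGG, in Dbp and Per2, on each gene's own strand, and AGGTCA, the core of the sites bound by Nr1d1 and Nr1d2, in Bmal1 and Nr1d2.
Dbp, chr1:105312006-105312255, plus strand: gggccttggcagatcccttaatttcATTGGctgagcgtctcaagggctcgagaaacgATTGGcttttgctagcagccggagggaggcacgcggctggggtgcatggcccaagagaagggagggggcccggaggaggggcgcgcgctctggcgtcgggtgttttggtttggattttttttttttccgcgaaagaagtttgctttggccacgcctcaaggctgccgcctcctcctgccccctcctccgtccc
Per2, chr9:99497070-99497243, minus strand: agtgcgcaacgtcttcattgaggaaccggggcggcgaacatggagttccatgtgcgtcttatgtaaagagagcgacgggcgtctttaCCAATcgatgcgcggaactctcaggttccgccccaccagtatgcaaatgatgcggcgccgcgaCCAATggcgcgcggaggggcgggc
Bmal1, chr1:176766298-176766327, plus strand: gggaaggcagaaagtAGGTCAgggacggag
Nr1d2, chr15:9954835-9954864, plus strand: gattggaaggagAGGTCAggaacgcgcata

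The Dbp and Per2 stretches hold 2 CCAAT matches each. The AGGTCA match starts 15 bases before the start site that the table uses for Bmal1 and 187 bases before that of Nr1d2. The Bmal1 stretch lies inside the RefSeq span of the Bmal1 gene, which begins further upstream, and the other 3 stretches lie outside their genes' spans. In the 250 bases before each start, searched on both strands, CCAAT was found in 6 of the 7 tested clock genes with an entry (34% of 33469 windows overall) and AGGTCA in 2 (14.1% overall). CACGTG, the E-box, was found in 2 of the 7, Bhlhe40 and Tef (5.59% overall). The pattern ACANNNTGT, the spaced pair that the glucocorticoid receptor dimer reads, was found in 0 of the 7, and in 1 of 19 glucocorticoid-responsive genes with an entry, Glul (5.81% overall). These are letter matches in a short window and do not show binding.

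Dbp had signals of 296 and 480 in the left kidneys and 536 and 711 in the right kidneys of DEX rats 3 and 7. In the saline rats 2, 4, 6 and 8 it had 873, 158, 832 and 195 on the left and 529, 184, 562 and 217 on the right. The left kidneys of the saline rats differed by more than 4-fold and enclosed the DEX rats, and the right kidneys of rats 2 and 6 were about as bright as that of rat 3. The changes were 0.82 and 0.55 after DEX, against -0.71, 0.20, -0.55 and 0.14 after saline. The difference was 0.91 ± 0.28 (adjusted p = 0.999, limma), and a second probe set gave 0.96 ± 0.27. Dbp was lower on the right than on the left in saline rats 2 and 6 and slightly higher in rats 4 and 8.

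Bmal1 ran the other way. Its signals were 113 and 94.2 on the left and 57.9 and 69.7 on the right in the DEX rats. The saline rats had 47.6, 146, 68.3 and 160 on the left and 63.6, 138, 111 and 142 on the right. The right kidneys of the DEX rats were as low as that of saline rat 2 and below those of the other 3 saline rats. The changes were -0.80 and -0.36 against 0.32, -0.08, 0.59 and -0.16, a difference of -0.75 ± 0.21, and rats 2 and 6 again stood apart from rats 4 and 8. A second Bmal1 probe set was too dim to be tested and had -0.27.

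Per2 had 41.7 and 76.9 on the left and 66.1 and 85.7 on the right in the DEX rats, against 91.1, 46.6, 78.7 and 53.3 on the left and 72.5, 43.3, 83.4 and 46.5 on the right in the saline rats. These signals are near the lower limit of what was tested, and the levels of the DEX rats lay within those of the saline rats on the left but for rat 3. The changes of 0.51 and 0.13 lay above the saline range of -0.28 to 0.07, and the difference was 0.43 ± 0.15. Nr1d2 had 0.52 ± 0.23, with changes of 0.78 in rat 3 and 0.05 in rat 7. Rat 7 lay within the saline range of -0.53 to 0.22. Nr1d1 differed in sign from Nr1d2, with -0.51 ± 0.30 and -0.47 at a second probe set, and its left kidneys in the DEX rats (320 and 274) were among the brighter ones.

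Among the remaining clock genes, Tef had 0.20 ± 0.18, Bhlhe40 0.06 ± 0.19 and Hlf -0.06 ± 0.18, and Bhlhe41 was too dim to be tested. Of the 8 tested genes, 3 had a higher value at an unadjusted p under 0.05 (Dbp, Nr1d2, Per2) and 1 a lower one (Bmal1), beside 1.57% and 1.1% of all genes. In the same list 2 lay above (Dbp, Per2; 25%) and 1 below (Bmal1; 12.5%) all saline rats, beside 6.28% and 6.81% of all genes. The median over the 8 genes was 0.13, and 0.04 without rat 7. The hour at which the kidneys were taken is not in the labels, and its part in the Dbp and Bmal1 values was not tested.

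Genes of the extracellular matrix had mostly negative DEX differences. Col3a1, a fibrillar collagen chain of interstitial tissue, had the smallest unadjusted p of all 5244 probe sets (0.000148, limma; adjusted p = 0.776). Its signals were 283 and 606 on the left and 142 and 297 on the right in the DEX rats, and 275, 267, 370 and 457 on the left and 306, 278, 485 and 461 on the right in the saline rats. The right kidney of rat 3 was the dimmest of the 12, while that of rat 7 lay within the saline range, and both were far below the left kidney of the same animal. The changes of -0.92 and -0.99 were close to each other, the saline changes lay between 0.01 and 0.38, and the difference was -1.10 ± 0.20. Rats 1 to 4 alone gave -1.02 and rats 5 to 8 alone gave -1.19. A second Col3a1 probe set gave -0.39 ± 0.31, with DEX changes of -0.71 and -0.51 and a saline rat 8 at -1.14.

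Col1a1, the other main chain of fibrillar collagen, had 444 and 665 on the left and 227 and 371 on the right in the DEX rats. The saline rats had 368, 299, 411 and 541 on the left and 422, 322, 403 and 491 on the right. Its changes of -0.92 and -0.82 lay clear of the saline changes of -0.14 to 0.19, and the difference was -0.90 ± 0.25. Of 3 further probe sets, 2 gave -0.76 and -0.73. The remaining one gave -0.05 ± 0.92, with saline rat 8 at -3.61. Col1a2, its partner chain, had changes of -0.48 and -0.50 and a difference of -0.62 ± 0.27.

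Of 34 matrix and fibrosis genes on the array, 27 were tested, with a median of -0.22, 4 positive and 23 negative values. Both DEX rats lay below all saline rats in 12 of the 27 (44.4%) and above in 0, beside 6.81% and 6.28% of all genes. At an unadjusted p under 0.05 there were 4 lower (Col3a1, Col1a1, Col1a2 and Mmp2) and 0 higher, beside 1.1% and 1.57% of all genes. The further members with lower values included the adhesion glycoprotein Fn1 (-0.40 ± 0.30), the membrane metalloproteinase Mmp14 (-0.39 ± 0.19), the proteoglycan Dcn (-0.38 ± 0.24), Eln (-0.35 ± 0.17), Col5a2 (-0.34) and Bgn (-0.31). The growth factor Tgfb1 had -0.27 and the inhibitor Timp1 -0.18. Sparc, which binds collagen, had -0.06 at its brightest probe set, and Spp1, a tubular glycoprotein raised in injury, had 0.19. Another Sparc probe set was lower after DEX at an unadjusted p under 0.05 in limma. There the right kidneys of both DEX rats were dimmer than those of all saline rats.

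The mean change of the 27 matrix genes was -0.20 in rat 3 and -0.18 in rat 7, against 0.14, 0.08, 0.06 and -0.00 in the saline rats, so that the groups did not overlap. Leaving out any 1 rat kept the median of the list between -0.25 and -0.21. Between animals the median gene was 0.14 higher in the left kidneys and 0.09 lower in the right kidneys of DEX rats. The summed signal of the list was 9828 to 10150 in the left and 9165 to 9233 in the right kidneys of DEX rats, against 8366 to 9391 and 8845 to 9615 in saline rats. By this sum the left kidneys of DEX rats were the brightest of those compared. Their right kidneys lay within the range of the saline rats. The mean over the list on the log2 scale of the changes differed from the sum for the right kidneys. On that scale the right kidneys of DEX rats 3 and 7 (7.91 and 7.98) lay below all right kidneys of saline rats (8.03 to 8.10). Their left kidneys (8.11 and 8.16) lay above all left kidneys of saline rats (7.95 to 8.04). In RNA from whole kidney, fewer cells of a type and less RNA per cell cannot be told apart, here or in the lists below.

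Genes of adipose tissue had the most negative differences of the 28 named genes. Ucp1, the uncoupling protein of brown fat, had 253 and 788 on the left and 53.0 and 98.2 on the right in the DEX rats. In the saline rats it had 64.7, 69.6, 255 and 62.7 on the left and 142, 44.6, 76.9 and 94.3 on the right. The right kidneys of both groups covered the same range, and the left kidneys were high in both DEX rats and in saline rat 6. Its difference was -2.24 ± 0.53, with changes of -1.96 and -2.81 against 0.97, -0.50, -1.55 and 0.49, and a second probe set gave -1.75 ± 0.43. Cfd, the complement protease secreted by fat cells, and Fabp4, their lipid-binding protein, had -1.48 ± 0.43 and -1.45 ± 0.52. In both, saline rat 6 changed in the same direction (-0.75 and -1.28).

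Of 21 adipose genes on the array 19 were tested, with a median of -0.29 (-0.19 without rat 3), and 5 positive and 14 negative values. At an unadjusted p under 0.05, 4 were lower (Ucp1, Cfd, Fabp4 and Cidea) and 0 higher, beside 1.1% and 1.57% of all genes. In 5 of the 19 (26.3%) both DEX rats lay below all saline rats and in 0 above, beside 6.81% and 6.28% of all genes. Cidea, a lipid droplet protein, had -1.34 ± 0.49, the desaturase Scd -0.96, the lipase Lipe -0.60, the regulator Pparg -0.39 and the receptor Adrb3 -0.31. The hormone gene Lep had 0.09, and Plin1 and Acaca were too dim to be tested. Cox8b, a heart and brown fat subunit of cytochrome c oxidase, had -1.02 ± 0.48.

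The mean change of the 19 adipose genes was -0.52 in rat 3, -0.51 in rat 7 and -0.55 in saline rat 6, and 0.22, -0.01 and 0.26 in the other saline rats. Their summed signal was 8912 to 9124 in the left and 7539 to 8352 in the right kidneys of DEX rats, and 6856 to 10610 and 6022 to 9427 in those of saline rats. The part of adherent fat in the Ucp1, Cfd and Fabp4 values was not tested.

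The genes of blood and of other cells were set beside these. Of 4 tested globin and red cell genes, Hbb-b1 had -0.81 ± 0.32 and Hbb -0.70 ± 0.28, and the mean change was -0.27 and -0.53 in the DEX rats and -0.47 in saline rat 6, against 0.20, 0.38 and 0.20 in the others. Among the near-identical globin genes the probe sets may share signal. Of 21 leukocyte genes 11 were tested, with a median of -0.15, and 10 of the 11 were negative. Their mean change was -0.20 and -0.06 in the DEX rats and -0.01 to 0.06 in the saline rats. All 8 tested endothelial genes were negative, with a median of -0.15. Their mean change was -0.21 in rat 3 and -0.06 in rat 7, against -0.08 to 0.09 in the saline rats, so rat 7 overlapped. Below all saline rats lay 0 of these 8 and 1 of the 11 leukocyte genes (9.09%), beside 6.81% of all genes. Without rat 3 the leukocyte and endothelial medians were -0.08 and -0.04, and without rat 8 the endothelial one was -0.09. Sncg, a synuclein found in neurons and fat, had -0.62 ± 0.20, and Ccl2, a chemokine that draws monocytes, had -0.49 ± 0.18. The 22 tested inflammatory genes had a median of -0.08, with 5 positive and 17 negative, and 2 of them (9.09%) lay below all saline rats, near the 6.81% of all genes. At an unadjusted p under 0.05, 1 of the 22 was higher (Nfkbia) and 1 lower (Ccl2), beside 1.57% and 1.1% of all genes. The median of the list turned to 0.01 without rat 3, and was -0.03 without rat 6 and -0.15 without rat 7.

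**Figure D2:**
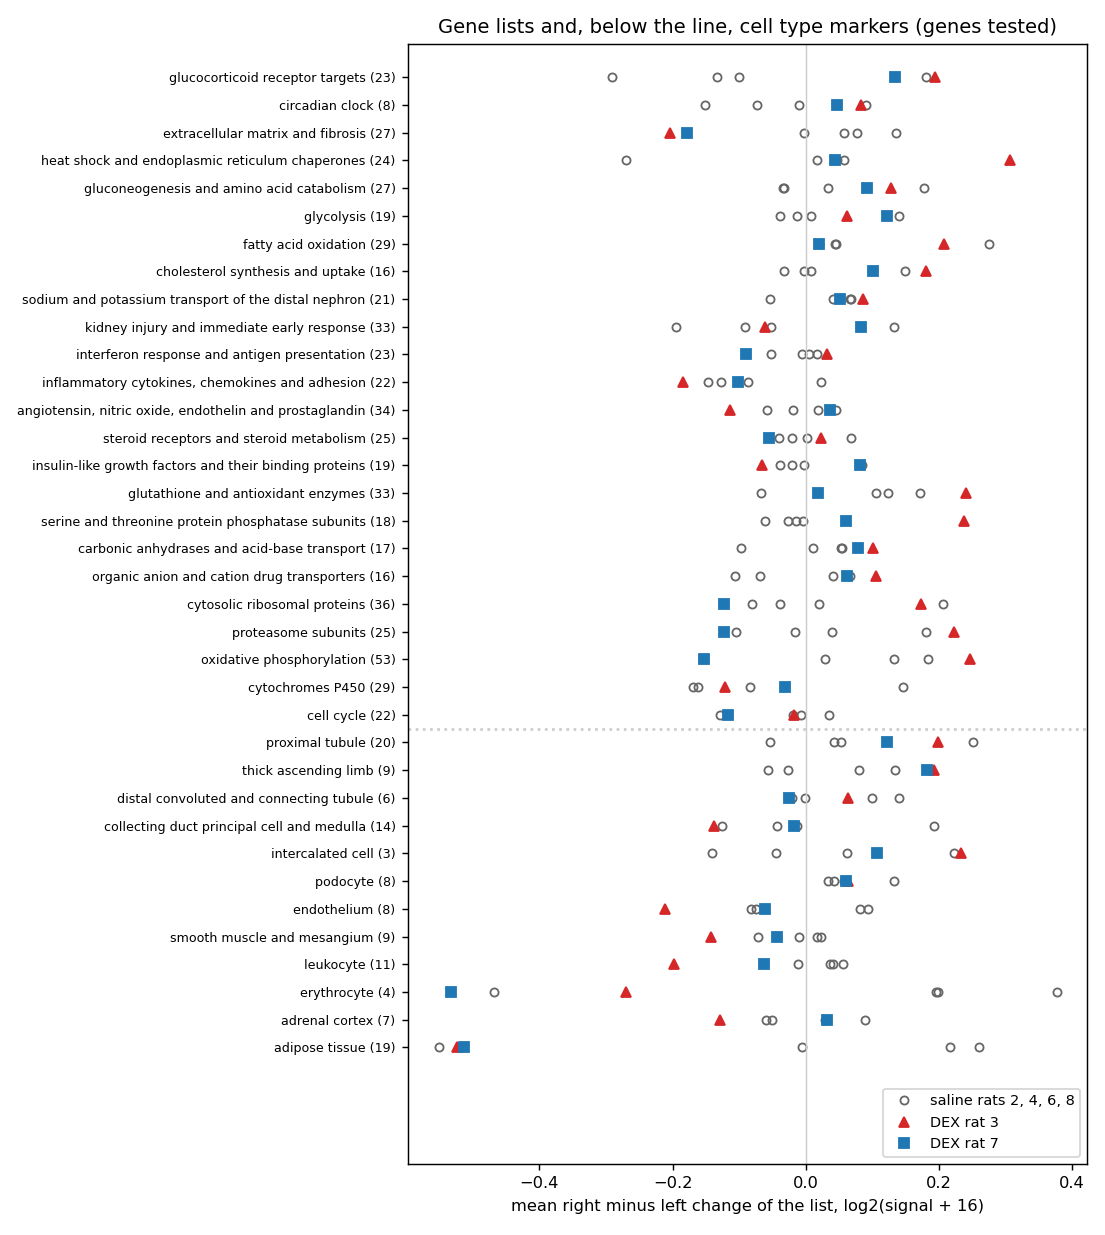
Mean right minus left log2 change of each rat over the tested genes of several lists, DEX rats and saline rats as separate points. Both DEX points lie below the saline points for the extracellular matrix (-0.20 and -0.18 against -0.00 to 0.14), while for adipose genes saline rat 6 (-0.55) lies with the DEX rats.

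The higher set was led by Car4, a carbonic anhydrase anchored to tubular membranes that serves bicarbonate reabsorption. Its signals were 309 and 183 on the left and 405 and 530 on the right in the DEX rats, and 542, 343, 612 and 448 on the left and 407, 355, 610 and 373 on the right in the saline rats. The left kidneys of both DEX rats were dimmer than every left kidney of the saline rats, and the right kidneys overlapped. Its changes were 0.37 and 1.46 against -0.40 to 0.05, and the difference of 1.07 ± 0.27 became 0.53 without rat 7 and 1.61 without rat 3. A second Car4 probe set gave 0.28. Genes of acid and base transport as a list had a median of 0.03.

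Ppp1cb and Ppp1cc encode catalytic subunits of protein phosphatase 1. Ppp1cb had 177 and 169 on the left and 450 and 242 on the right in the DEX rats, against 415, 410, 172 and 198 on the left and 371, 380, 170 and 178 on the right in the saline rats. Rats 2 and 4 differed from rats 6 and 8 by more than the kidneys of any saline rat differed from each other. Rat 3 resembled rats 2 and 4 on the right and rats 6 and 8 on the left, and the difference of 0.98 ± 0.24 became 1.38 when rat 7 was left out and 0.59 when rat 3 was. A second Ppp1cb probe set gave 0.73 ± 0.25. Ppp1cc had 391 and 314 on the left and 770 and 483 on the right in the DEX rats, against 716, 665, 398 and 411 on the left and 692, 717, 446 and 348 on the right in the saline rats. Its changes of 0.95 and 0.60 stood above the saline range of -0.23 to 0.16, with a difference of 0.78 ± 0.18.

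The other 16 tested phosphatase subunits showed smaller values. Of all 18, 13 were positive and 5 negative, with a median of 0.12, and 5 (27.8%) lay above all saline rats and 0 below, beside 6.28% and 6.81% of all genes. Ppm1b (0.30) and Ppp1ca (0.20) were among the 5. The mean change over the 18 was 0.24 in rat 3 and 0.06 in rat 7, against -0.06 to -0.00 in the saline rats, and the median was 0.07 without rat 3. Of the 36 lists described, the phosphatases, the acid and base transport genes and the thick ascending limb genes had both DEX rats above all saline rats in their mean change. The matrix and the leukocyte genes had both below. These were 3 and 2 of the 36 lists, shares near the 6.28% and 6.81% of single genes.

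Acsm3, a mitochondrial enzyme that activates medium-chain fatty acids, had 98.0 and 72.8 on the left and 103 and 210 on the right in the DEX rats. The saline rats had 352, 542, 96.2 and 235 on the left and 356, 517, 69.4 and 170 on the right. Levels in the saline rats spanned more than 5-fold between animals, and the difference of 0.93 ± 0.32 came from rat 7 (change 1.35), rat 3 having 0.07. The value was 0.29 without rat 7. Between right kidneys alone its sign was opposite, at -0.53. Hnmt, which inactivates histamine, had changes of 0.30 and 0.11 after DEX against -0.00, -0.05, -0.71 and -0.65 after saline, so that its difference of 0.56 ± 0.23 rested on lower right kidneys in saline rats 6 and 8. Afm, a carrier of vitamin E, had 0.57 ± 0.17, with changes of 0.32 and 0.52 against -0.34 to 0.02.

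The rest of the higher set had differences of 0.54 to 0.59. Pafah1b1, a regulator of dynein, had 0.59 at its brightest probe set and -0.14 at another. Ccdc117 had 0.56 ± 0.19, with changes of 0.41 and 0.62 against -0.26 to 0.25. Slc35a1, the Golgi transporter of CMP-sialic acid, and Srsf11, a splicing factor, had 0.56 and 0.55, mostly from rat 3 (0.61 and 0.60) and little from rat 7 (0.10 and 0.08). Ankib1 had 0.54 ± 0.19. Without rat 3, Slc35a1 had 0.30 and Srsf11 0.29.

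The rest of the lower set had differences between -0.57 and -0.45. Ces1e, a carboxylesterase of the endoplasmic reticulum, had changes of -0.38 and -0.40 against -0.13 to 0.56. Nnat, a small proteolipid, had signals of 124 and 115 on the left and 77.2 and 69.8 on the right in the DEX rats, against 67.4 to 96.1 and 68.1 to 98.6 in the saline rats. The left kidneys of the DEX rats were thus the brightest for Nnat, and its difference of -0.55 ± 0.14 came from 2 nearly equal changes (-0.59 and -0.61). Ppard, a lipid-sensing nuclear receptor, had -0.51 at its brightest probe set and -0.28 and -0.22 at 2 others. Wrap53, which guides telomerase RNA, had -0.46, and Mmp2, a gelatinase, had -0.45 and -0.17 at a second probe set. Sncg was -0.41 without rat 7 and Ccl2 -0.30.

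Of the probe sets without a single gene symbol, the largest were rc_AI232374_at (1.03), M83740_s_at (0.99) and rc_AI177004_s_at (0.87) with higher values and X56325mRNA_s_at (-0.61), X62950mRNA_i_at (-0.59) and M18528cds_f_at (-0.58) with lower ones. M83740_s_at had a signal of 241 in the left kidney of rat 7 and of 919 to 966 in the other left kidneys of the compared rats.

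Chaperones and stress genes had mostly positive values that depended on rat 3. Hspa5, the main chaperone of the endoplasmic reticulum, had 413 and 541 on the left and 676 and 581 on the right in the DEX rats, against 688, 581, 576 and 501 on the left and 665, 608, 558 and 231 on the right in the saline rats. The low right kidney of saline rat 8 stood apart. The difference of 0.67 ± 0.29 became 0.40 without rat 8 and 0.37 without rat 3, and a second probe set gave 0.81 ± 0.22. Of 24 tested genes 20 were positive, with a median of 0.27, and this median was 0.08 without rat 3 and 0.14 without rat 8. The mean change was 0.31 in rat 3 and 0.04 in rat 7, against -0.27 to 0.06 after saline. Dnajb1 had 0.49, Hsp90b1 0.37, Dnajb9 0.34 ± 0.15 and Hspb1 -0.28.

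Of the genes that carry sodium and potassium in the distal nephron, 21 were tested, with a median of 0.00 and 11 positive and 10 negative values. Klk1, tissue kallikrein, a protease secreted by the connecting tubule, had signals of 3149 and 2946 on the left and 2692 and 2459 on the right in the DEX rats. In the saline rats it had 3734, 3364, 2150 and 2818 on the left and 4032, 3503, 2237 and 3191 on the right. It was lower on the right in both DEX rats (-0.22 and -0.26) and slightly higher in every saline rat (0.06 to 0.18), a difference of -0.34 ± 0.14. A second Klk1 probe set gave -0.28 ± 0.17, with changes of 0.01 in rat 3 and -0.285 in rat 7. The potassium channel Kcnj1 had 0.35, the sodium channel subunits Scnn1g and Scnn1a 0.14 and 0.02, and the cotransporter Slc12a3 -0.01. The 9 thick ascending limb genes had a median of 0.17, with mean changes of 0.19 and 0.18 against -0.06 to 0.13. That median was 0.08 without rat 3.

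Metabolic lists had medians from 0.02 to 0.14. Both DEX rats lay above all saline rats in 4 of 27 gluconeogenic and amino acid genes (14.8%), 4 of 16 cholesterol synthesis genes (25%) and 4 of 19 glycolytic genes (21.1%), and below in 0 of each, beside 6.28% and 6.81% of all genes. Gluconeogenic and amino acid genes had a median of 0.08, with 0.47 ± 0.16 for Bhmt, which remethylates homocysteine, and 0.37 for Got1. Cholesterol synthesis genes had a median of 0.14 (0.08 without rat 8). Msmo1, a sterol methyl oxidase, had 0.45 ± 0.18, Idi1 and Sqle 0.35 each, and Fdft1 0.34. Glycolytic genes had a median of 0.02, with 0.44 ± 0.18 for Pklr, and fatty acid oxidation genes 0.02, with -0.38 for Ucp2. Glutathione genes had 0.04, with 0.47 ± 0.17 for Gclm, the modifier subunit of glutathione synthesis.

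Genes of injury and of the immediate early response had a median of -0.01 over 33 genes. Egr1, an immediate early transcription factor, had 1.32 ± 0.60, with changes of -0.10 and 1.44 after DEX and -0.36, 0.53, -1.55 and -1.23 after saline. The groups overlapped. Mme, the brush border peptidase neprilysin, had 0.44 ± 0.19. It belonged to a list of angiotensin, nitric oxide, endothelin and prostaglandin genes. The 34 tested genes of that list had a median of -0.06, with 8 positive and 26 negative values. The median was 0.02 without rat 3. The ribosomal (36 genes), proteasome (25) and oxidative phosphorylation (53) lists had medians of 0.00, 0.02 and 0.01. In these lists the mean change was 0.17, 0.22 and 0.25 in rat 3 and -0.12, -0.12 and -0.15 in rat 7, so that the medians near 0 joined DEX rats of opposite sign.

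Because each change is a difference between kidneys, it was split into the left and the right kidneys compared between animals. Neither side gave a call: in limma 0 probe sets passed the adjusted threshold for the left kidneys (45 unadjusted) and 0 for the right kidneys (49 unadjusted). Over all tested probe sets the left part was the larger one in 48.3%, and in 65 (42.5%) of the 153 with an unadjusted p under 0.05. Of the 14 named genes with higher values, the left part was the larger in 9, with left kidneys of DEX rats dimmer than those of the saline rats in 13 and right kidneys brighter in 13. Of the 14 with lower values, the left part was the larger in 6, the left kidneys being brighter in 13 and the right kidneys dimmer in 14. The choice by a large difference favours such signs. Over all 5244 probe sets the right part had the sign of the difference in 3806 and the left part the opposite sign in 3695. Among the 153 with an unadjusted p under 0.05 these were 144 and 136. For Car4 the left part was -0.95 and the right part 0.12. For Ucp1 they were 2.08 and -0.16. For Dbp (-0.05 and 0.86), Bmal1 (0.10 and -0.65) and Col3a1 (0.30 and -0.80) the right part was the larger.

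**Figure D3:**
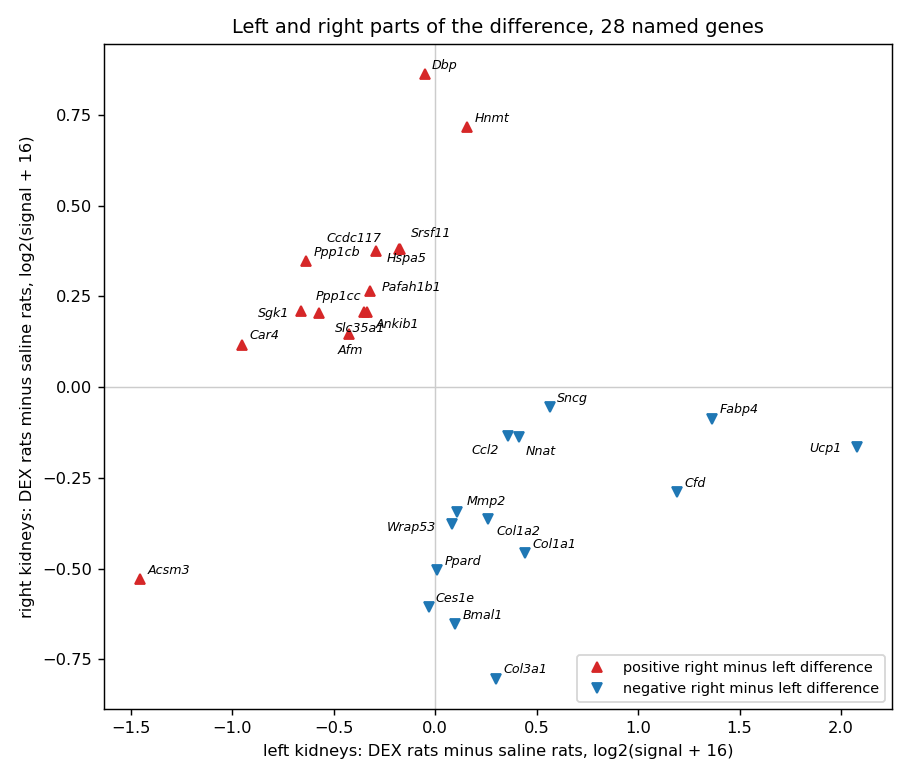
DEX minus saline on the log2 scale in the left kidneys (x axis) and in the right kidneys (y axis) for the 28 named genes. Dbp, Bmal1 and Col3a1 lie away from 0 mainly along the axis of the right kidneys, and Ucp1, Acsm3 and Car4 mainly along the axis of the left kidneys (2.08, -1.45 and -0.95).

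The DEX rats were also set against each other over the whole array. The change of rat 3 lay above all saline rats in 1207 probe sets and below in 1100, and that of rat 7 in 789 and 936. They shared 318 and 333 of these, and in 293 they lay beyond the saline rats on opposite sides. Across the 5244 probe sets, which are not independent and share the same arrays, the changes of rats 3 and 7 correlated at r = 0.31 (rho = 0.18). Pairs of saline rats had r from -0.07 to 0.13, and of all 28 pairs of rats only rat 3 and saline rat 4 had a higher r (0.54, rho = 0.58). By rho the DEX pair (0.183) did not stand above all saline pairs, since saline rats 2 and 4 had 0.187. Further pairs were also higher by rho, such as rat 3 with saline rat 2 (0.274) and ACTH rats 1 and 5 (0.252). The right kidney of rat 3 was closest to the right kidney of rat 4 (r = 0.990), and correlated at 0.981 with its own left kidney. The left kidney of rat 3 was also the one most often lowest and apart from the other left kidneys, in 33 probe sets. Of the 28 named genes, 10 had changes in the DEX rats that differed by more than 2-fold, with rat 3 the larger in 10 of the 14 higher and rat 7 in 11 of the 14 lower genes. Leaving out 1 rat moved 9 of the 28 by over 1.5 times: Acsm3, Car4, Ccl2, Hspa5, Ppp1cb, Sgk1, Slc35a1, Sncg and Srsf11.

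Probe sets of the same gene gave a second reading. Of 931 genes with more than 1 tested probe set, 636 (68.3%) had the same sign of the DEX difference in all of them. Of the 28 named genes 12 had several, and in 11 these agreed in sign, Pafah1b1 being the exception.

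The DEX rats were finally set against the ACTH rats. In limma 25 probe sets (0.477%) passed an adjusted p of 0.05, 15 with a higher and 10 with a lower change after DEX, and 635 passed unadjusted. Leaving out 1 rat moved the 25 to 90 and 92 without ACTH rats 1 and 5, to 4 and 2 without DEX rats 3 and 7, and to 11 and 6 without saline rats 2 and 4. This comparison and that with saline share the kidneys of the DEX rats. Of the 25, 14 also had an unadjusted p under 0.05 against saline, beside 153 of all 5244, and the shared kidneys favour such an overlap. Among the 28 named genes were 6 of the 25: Ppp1cb (1.51 over ACTH, adjusted p = 0.0391), Ppp1cc (1.19, 0.0353), Afm (1.01, 0.0428), Hnmt (1.82, 0.0179), Ucp1 (-3.27, 0.0398) and Sncg (-1.34, 0.0353). Second probe sets of Ucp1 (-2.87) and Hnmt (1.73) were also among the 25. At that Hnmt probe set DEX rat 7 (0.01) lay below saline rat 4 (0.04), so the groups overlapped. Others with values against saline given above or in these lists were Per2 (1.16, 0.0211) and Lgals1 (-1.31, 0.0271), a galectin of connective tissue, with -0.44 ± 0.18 against saline. The transporter Slco1a1, of the proximal tubule, had the smallest adjusted p (1.69, 0.00353) and 0.44 ± 0.16 against saline. Its changes were -1.60 and -1.37 in ACTH rats 1 and 5 and 0.21 and 0.22 in the DEX rats. Prlr, the prolactin receptor, differed by 1.00 from ACTH (adjusted p = 0.0319) and had -0.31 ± 0.15 against saline at its brightest probe set. There its changes were -1.33 and -1.39 in ACTH rats 1 and 5 and -0.35 and -0.36 in the DEX rats. Its other tested probe sets disagreed in sign against saline, with 0.35, -0.43 and 0.25. Kap, the androgen-regulated protein of the proximal tubule, differed by 0.99 (adjusted p = 0.0157) and had 0.20 ± 0.12. For the collagen Col3a1 the same comparison gave -0.03 (adjusted p = 0.981), and for Sgk1 0.60 (adjusted p = 0.512).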

How the data were processed

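Each kidney was read on 1 array. The deposited values are the authors' one-colour signal intensity per probe set on a linear scale, from 5.18 to 12664 over the 16 arrays. How the authors normalized them is not given in the sources used here, and no further normalization was applied. Control probe sets (59 of 8799) were removed, as were the 3496 of lowest mean signal (40%), which left every mean at 61.1 or above.

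Values were analysed as log2(signal + 16) in limma 3.58.1 (R 4.3.3), with the rat as a block, a term for the right side, 1 further term each for ACTH and DEX, all 16 arrays, an intensity trend in the prior variance and Benjamini-Hochberg adjustment over 5244 probe sets. The pairing comes from the labels, which give both kidneys of 1 animal the same rat number. The deviations of paired kidneys correlated at r = 0.555 to 0.708. Left and right kidneys were also compared between rats, with no rat block. The script was tested on simulated data.

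Of the 8740 probe sets, 7006 carried 1 gene symbol in the platform annotation, 308 several and 1426 none, and 21 gene identifiers were unmatched in RefSeq. The probe set of highest mean signal stood for a gene (3187 genes), and 36 gene lists were described by counts and medians. The text names the 14 genes with the largest difference in each direction among those with an unadjusted p under 0.05 and no overlap, the 3 largest such probe sets without a single symbol in each direction, the 2 members of smallest p of each list, all clock and glucocorticoid-responsive genes, and Sgk1, Nr3c1, Hsd11b2, Pck1, Tat and Igfbp1; others were chosen after their values were seen. The members and lists were chosen with earlier results of these data known. Alternatives changed the pseudocount, the filter, the normalization, the trend, the arrays fitted, the block and the probe set of a gene, and left out each rat. Upstream sequences were read from RefSeq (GRCr8).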

Additional observations from a re-analysis of the deposited data

Results flagged for a closer look

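Within groups of 4 to 8 kidneys or changes, 10 of 102 groups held 1 value far from the rest. The limit used gives about 1 in 20 by chance in groups that are independent and not selected. That rate does not apply here. The features were chosen by their DEX and saline changes, and a change shares data with the signals of its kidneys. Among the saline changes of Sgk1, rat 8 (-0.2095) lay below the others (-0.0761 to -0.0594). Saline rat 8 also had the low Hspa5 change of -1.068 (others -0.0474 to 0.0642), from a right kidney signal of 230.9 (others 557.7 to 664.9), and the low change of M83740_s_at of -0.4178 (others -0.0402 to 0.0286). Saline rat 6 had the low Pafah1b1 change of -0.7331 (others -0.1558 to -0.1473), from a right kidney signal of 174.9 (others 262.2 to 283.8), and the high change of X62950mRNA_i_at of 0.6396 (others -0.2998 to -0.1536). The right kidney of saline rat 2 had the high Mmp2 signal of 154.3 (others 113.7 to 117.8). Among the left kidneys of all 8 rats, rat 7 had the high Sncg signal of 337.2 (others 161.1 to 191.1) and the low signal of M83740_s_at of 240.7 (others 919 to 966.1).

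For 11 of 116 named features, the right minus left change differed between DEX and ACTH rats by the limma test of that difference, adjusted over all 5244 probe sets. Of all probe sets, 25 (0.477%) did so. Many of the 116 were chosen by their DEX values against saline, which come from the same DEX kidneys, so the 2 shares cannot be compared. It was higher after DEX than after ACTH for Ppp1cb by 1.506 (adjusted p = 0.0391), Ppp1cc by 1.193 (0.0353), Afm by 1.013 (0.0428), Hnmt by 1.817 (0.0179), Per2 by 1.156 (0.0211), Prlr by 1.003 (0.0319), Kap by 0.9868 (0.0157) and Slco1a1 by 1.692 (0.00353). The difference was negative for Ucp1, at -3.273 (0.0398), Sncg, at -1.338 (0.0353), and Lgals1, at -1.314 (0.0271). For all 11 the changes of both DEX rats lay on 1 side of those of both ACTH rats, which passing that test favours. The changes of ACTH rats 1 and 5 were -0.25 and -1.01 for Ppp1cb, -0.27 and -0.57 for Ppp1cc, and -0.65 and -0.54 for Afm. For Hnmt they were -1.36 and -1.86, for Per2 -0.80 and -0.87, and for Prlr -1.33 and -1.39. For Kap they were -0.71 and -0.97, and for Slco1a1 -1.60 and -1.37. For Ucp1 they were 1.13 and 0.64, for Sncg 1.03 and 0.36, and for Lgals1 1.06 and 0.81.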

How the results depend on the processing

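The counts of calls moved with the settings as follows. The unadjusted counts of DEX over saline, 95 higher and 58 lower, were 14 and 5 with no replicate block (rat pairing dropped) and 28 and 21 from the right kidneys alone. The lower count was 96 with the 12 arrays of DEX and saline rats only, 111 with no filter and 38 with 60% of the probe sets left out. Without the block 0 probe sets were called for DEX over saline and 0 for DEX over ACTH. The non-overlap count, 651 probe sets in both directions, was 995 with no filter. The test of right over left in saline rats gave 1 call with pseudocount 1, with no filter and with 60% left out, a probe set of Scd2. Leaving out 1 rat in turn gave 0 to 2 calls for DEX over saline (2 without rat 3, with Mep1a at 3.18 and M83740_s_at at 1.82, and 2 without rat 6, the Ucp1 probe sets at -2.71 and -2.14), 27 to 146 higher and 31 to 97 lower unadjusted, 651 to 2307 without overlap, 2 to 92 for DEX over ACTH, 0 to 4 for right over left in DEX rats, 0 to 1 in saline rats and 0 to 2 for the left kidneys. The last were Mep1a and M83740_s_at without rat 3. With 1 DEX rat left, that rat is assumed to vary like the other groups.

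The 28 named genes were chosen for no overlap between DEX and saline rats, which fixes their sign when a rat is left out or within a set of rats. Under the other settings Acsm3 turned to -0.5283 between right kidneys only. Of 2182 values of all 116 named features, those 28 included, 47 had the other sign, in 25 features. With quantile normalization these were Igfbp1 -0.0054 and Scnn1a -0.0076. Between right kidneys only they were also Gadd45a -0.146, Igfbp1 -0.1299, Lgals1 0.0596, Nr1d1 0.0871, Nr3c1 0.0139, Rpl24 0.0381, Scnn1a -0.0456 and Slc9a3 -0.0647. Within rats 1 to 4 they were Agt 0.0183, Bhlhe40 -0.021, Dusp1 -0.0165, Egr1 -0.1805, Errfi1 -0.0047, Igfbp1 -0.9357 and Ndrg2 -0.1454. Within rats 5 to 8 they were Anxa1 -0.1402, Cdkn1a 0.0266, Hlf 0.0431 and Scnn1a -0.0523. Leaving out 1 rat turned the sign of 16 features at least once, with these ranges: Agt -0.1184 to 0.0184, Agxt -0.2232 to 0.0714, Aif1 -0.6245 to 0.126, Anxa1 -0.1859 to 0.2333, Bhlhe40 -0.0854 to 0.1395, Cdkn1a -0.1766 to 0.0942, Cebpd -0.206 to 0.0221, Hlf -0.3069 to 0.1817, Icam2 -0.3616 to 0.002, Igfbp1 -0.3991 to 0.4021, Ndrg2 -0.0083 to 0.1912, Pck1 -0.054 to 0.6054, Rpl24 -0.3893 to 0.012, Scnn1a -0.016 to 0.0738, Sult1a1 -0.0976 to 0.2615 and Tef -0.0551 to 0.4618. Of 720 alternative values of list medians, 69 changed sign. The cause of these shifts was not tested. With 2 DEX rats and dim probe sets near the limit on brightness, differences of the size of the median SE of 0.17 were not detectable.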

Other observations

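Mep1a, a metalloprotease of the proximal tubule brush border chosen here after its values were seen, was read differently by its probe sets. One, S43408_g_at, had 1.71 ± 0.55 for DEX over saline, with a change of 0.21 in rat 3 and 3.15 in rat 7. Its signal in the left kidney of rat 7 was 40.1, against 446 to 692 in the other left kidneys and 481 in the right kidney of rat 7. The other, S43408_at, had 0.18 ± 0.20 and a signal of 900 in the left kidney of rat 7. The array of that kidney was also the one with the low M83740_s_at signal.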
